A study of Mus musculus with 10 samples.

Results

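The keratin genes of the mouse were followed through RNA sequencing counts of mammary epithelial cells (MECs) and mammary gland macrophages. Every gene with a symbol made of Krt, a number and at most a closing a or b was a member, which gave 54 of the 55487 genes in the count tables. They were grouped by the epithelium each is best known from, as 4 simple keratins, 4 basal keratins, 16 epidermal, mucosal and stress keratins, 15 hair shaft keratins, 9 keratins of the inner root sheath and companion layer of the hair follicle, and 6 others. Of the members, 28 were type I and 26 type II keratins. The genes lay in 2 clusters of the GRCm38 genome, with 27 genes between 99232761 and 100269871 of chromosome 11 and 27 genes between 101347444 and 102032027 of chromosome 15, where *Krt18* was the type I gene among type II genes.

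The 10 libraries came from 10-wk-old diestrus-staged female BALB/c mice, with 2 libraries of WT MECs, 2 of *Cebpb*ΔM MECs, 2 of WT macrophages and 4 of *Cebpb*ΔM macrophages. Both genotypes carried the floxed *Cebpb* fl/fl allele, WT mice had no *Csf1r*-Cre, and *Cebpb*ΔM mice had *Csf1r*-iCre, which acts in CSF1R-expressing myeloid cells. *Cebpb*ΔM MECs were therefore epithelial cells from glands with such myeloid cells, although the labels list them under C/EBPb knockdown as well. MECs were what remained after depletion of other lineages, and macrophages were selected with antibody to F4/80. How many animals went into a library was not given in the sources used here, so the spread between libraries may be technical. Total counts ran from 25310926 to 27008166 in MEC libraries and from 16935000 to 20174722 in macrophage libraries. *Cebpb* itself had 25 and 28 counts in WT MECs and 69 and 42 in *Cebpb*ΔM MECs. In macrophages it had 13 and 15 counts in WT and 16, 13, 5 and 4 in *Cebpb*ΔM. In CPM (read counts scaled to 1000000 per library) this was 0.681 and 0.747 in WT and 0.837, 0.652, 0.277 and 0.247 in *Cebpb*ΔM. By this level *Cebpb*ΔM macrophage 4 lay above both WT libraries, macrophage 5 just below them and macrophages 6 and 7 further below. In macrophages the gene was under the count filter. In MECs it was tested, with a log2 fold change of 1.06 ± 0.47 (SE) and an adjusted *P* of 0.889 by the edgeR quasi-likelihood test.

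The defining markers went with the labels, but the macrophage libraries also held epithelial RNA. Across 10 macrophage markers the summed level was 30.9 to 42.6 CPM in MECs and 8423 to 15406 CPM in macrophages. *Adgre1*, which encodes F4/80, was at 0 in both *Cebpb*ΔM MEC libraries and between 183 and 375 CPM in macrophages. Across 14 epithelial markers that are not keratins the sum was 7579 to 12369 CPM in MECs and 1486 to 2887 CPM in macrophages, and none of the 14 was at 0 in any library. The 6 fibroblast markers summed to 4978 to 6129 CPM in MECs and 3315 to 7823 CPM in macrophages. In bulk libraries fewer cells of a type and less RNA per cell cannot be told apart, and the part of epithelial RNA in the keratin values of the macrophage libraries was not tested.

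Keratins are the intermediate filament proteins of epithelial cells, and each filament is built from pairs of a type I and a type II chain. In the mammary gland the luminal cells that line the ducts use the simple keratins, with *Krt8* as the type II partner of *Krt18* and *Krt19*, while the basal or myoepithelial cells around them use *Krt5* with *Krt14*, *Krt15* and *Krt17*. The hair follicle has its own sets, in which inner root sheath keratins pair with each other and the hair shaft is built from hard keratins. Macrophages are myeloid cells and build their intermediate filaments from vimentin.

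Keratin genes held 2.83% and 3.54% of all counts in WT MECs and 3.02% and 3.06% in *Cebpb*ΔM MECs. In WT macrophages the share was 0.973% and 0.951%, and in *Cebpb*ΔM macrophages it was 0.662%, 0.558%, 0.492% and 0.593%, so that the libraries of the 2 macrophage genotypes did not overlap. Scaled by gene length, the mean share was 4.82% in WT MECs, 4.60% in *Cebpb*ΔM MECs, 1.54% in WT macrophages and 0.891% in *Cebpb*ΔM macrophages. Simple keratins made up 82.0% to 86.8% of keratin counts in MECs and 79.2% to 97.6% in macrophages. Basal keratins made up 10.8% to 14.7% in MECs but 1.28% to 18.6% in macrophages. Per unit of length, the level of type I over type II keratins was 1.899 to 1.995 in the 4 MEC libraries and 1.96 to 2.90 in the 6 macrophage libraries.

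**Figure D1:**
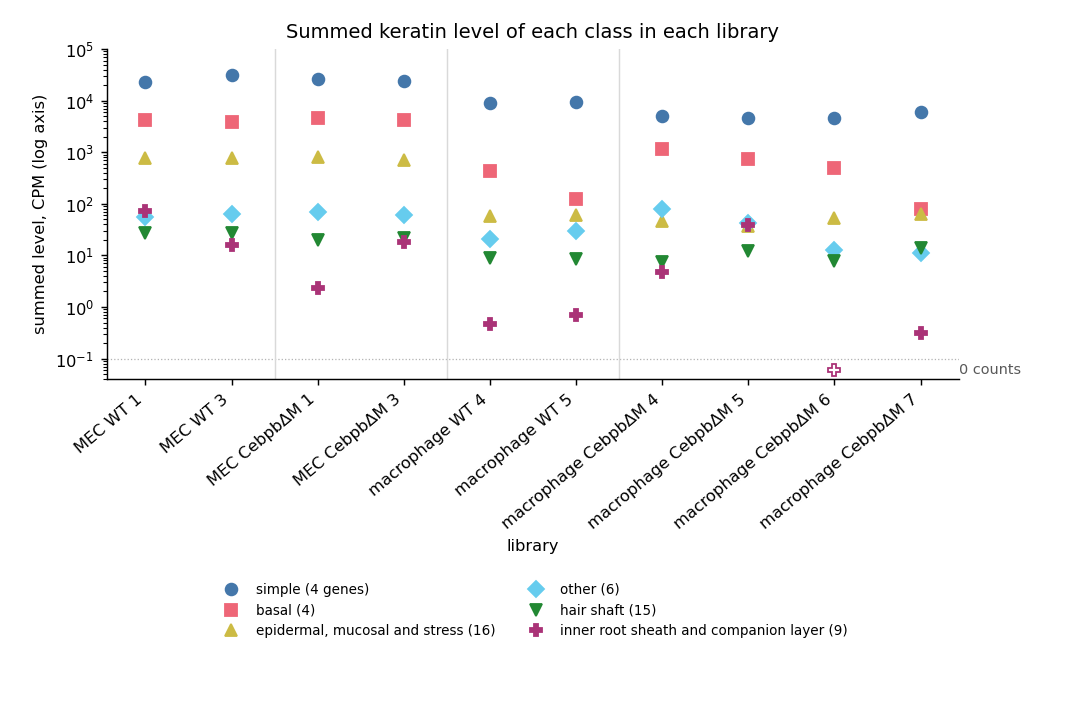
Summed level of each keratin class in each of the 10 libraries, in CPM on a log axis, with 1 point per class and library and an open symbol for 0 counts. Simple keratins led in every library, basal keratins ranged from 79.5 to 1176 CPM over the 4 *Cebpb*ΔM macrophage libraries, and inner root sheath keratins ranged from 2.30 to 73.5 CPM over the 4 MEC libraries.

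Library by library, between 40 and 47 keratins had at least 1 count in MECs and between 22 and 34 in macrophages. Of the members, 3, *Krt2*, *Krt24* and *Krt34*, had no count in any library, and 5 stayed at or under 3 counts everywhere. A count of 0 allows up to 0.111 to 0.119 CPM in the MEC libraries and 0.149 to 0.177 CPM in the macrophage libraries, counting error only. Tests were run on genes over 1 CPM in at least 2 libraries, which 28 keratins passed in MECs, 23 in macrophages and 29 over all 10 libraries. A gene may pass through the group in which it is high, so the tested keratins do not stand for all 54.

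WT MECs were set against WT macrophages in 1 edgeR quasi-likelihood (QL) fit of all 10 libraries, with Benjamini-Hochberg adjustment over the 18323 genes tested. Of the 29 keratins tested, 16 were higher in MECs at an adjusted *P* of 0.05 or less, against 10.7% of all genes, and 0 were lower, against 14.8% of all genes. The WT libraries of the 2 cell types did not overlap, higher in MECs, for 27 of 29 keratins, against 31.3% of all genes. Cell type and isolation method cannot be told apart in this comparison. Those called were all 4 simple keratins, the basal keratins *Krt5*, *Krt14* and *Krt17*, the epidermal and stress keratins *Krt4*, *Krt6a*, *Krt6b*, *Krt16* and *Krt80*, the hair shaft keratins *Krt32* and *Krt83*, and *Krt27* and *Krt42*. *Krt27* and *Krt32* passed the filter only through MEC libraries and had 0 counts in WT macrophages. Their sign in both of these counts of keratins was therefore fixed by the filter. The number rested on WT libraries: it was 10 without WT MEC 1, 13 without WT MEC 3, 14 without WT macrophage 4 and 10 without WT macrophage 5.

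*Cebpb*ΔM was compared with WT in MECs and in macrophages separately. In MECs the QL test called 0 of 28 keratins, where it called 8 of 15698 genes, or 0.051%. At an unadjusted *P* under 0.05 there were 8 keratins, against 5.42% of all genes, with 2 higher, against 3.99%, and 6 lower, against 1.43%. Groups without overlap were found for 6 keratins that were higher, against 15.4% of all genes, and 8 that were lower, against 13.3%. *Krt28* was among the lower keratins by both measures, but it passed the filter only through the WT libraries, so its sign was fixed. The likelihood ratio test and DESeq2 each called 1 keratin, *Krt4*, where they called 1.14% and 1.03% of all genes. In macrophages the QL test called 0 of 23 keratins, where it called 0% of 17772 genes. At an unadjusted *P* under 0.05 there were 4 keratins, all lower in *Cebpb*ΔM, against 3.67% of all genes in that direction and 8.63% in either, and these 4 were the simple keratins. The likelihood ratio test and DESeq2 each called 2 of them, *Krt8* and *Krt18*, where they called 0.777% and 1.13% of all genes. Over the tested keratins the median log2 fold change was −0.07 in MECs and −0.01 in macrophages, next to −0.01 and 0.00 over all genes tested.

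**Figure D2:**
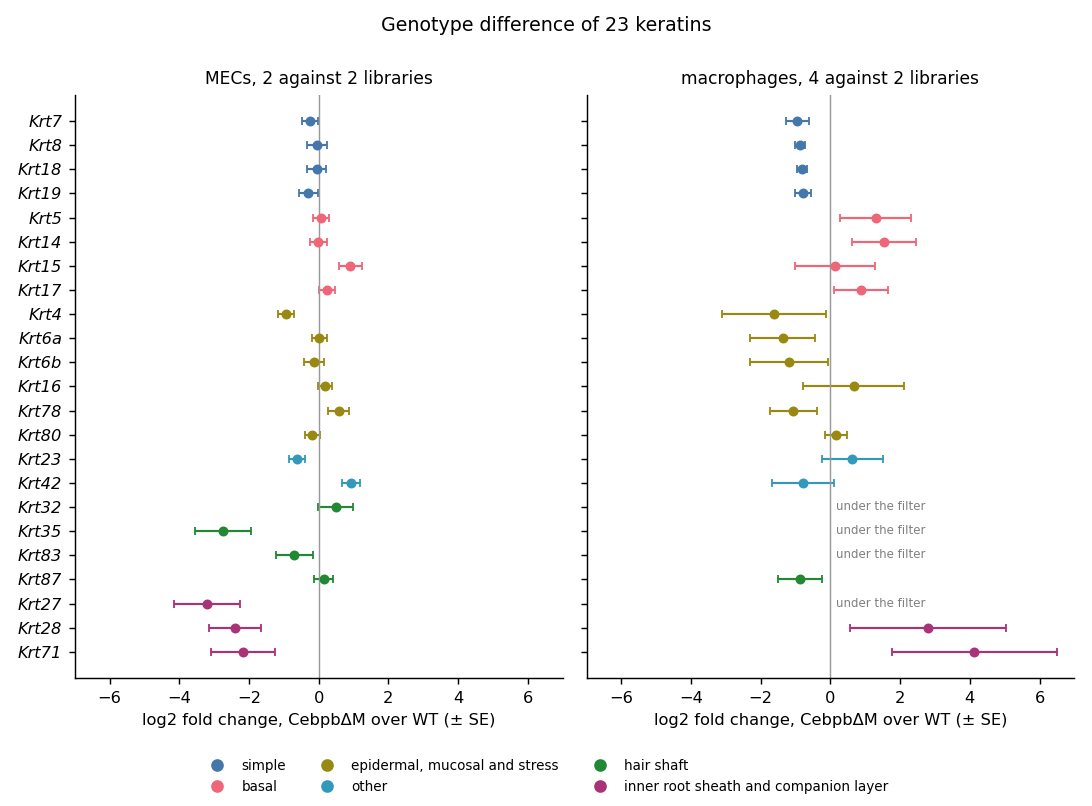
Log2 fold change of *Cebpb*ΔM over WT with its standard error (SE) for 23 keratins, in MECs on the left and macrophages on the right, coloured by class. In MECs the simple and most basal keratins sat near 0 and the inner root sheath keratins below it, while in macrophages the 4 simple keratins sat between −0.95 and −0.79.

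*Krt18*, *Krt8* and *Krt19* were the 3 most abundant keratins per unit of length in MECs and in macrophages. *Krt8* was at 9220 and 12320 CPM in WT MECs and at 10816 and 9949 CPM in *Cebpb*ΔM MECs. *Krt18* was at 7096 and 9512 CPM in WT and 8476 and 7521 CPM in *Cebpb*ΔM MECs. *Krt19*, a type I keratin of hormone-receptor-positive and other luminal cells, was at 6092 and 7935 CPM in WT and 5501 and 5921 CPM in *Cebpb*ΔM MECs. For *Krt8* and *Krt18* the genotypes overlapped, and for *Krt19* both *Cebpb*ΔM libraries lay below both WT libraries. *Krt7*, a second type II simple keratin, was at 1073 and 1223 CPM in WT and 1042 and 895 CPM in *Cebpb*ΔM MECs, also without overlap. The log2 fold changes were −0.05 ± 0.28 (SE) for *Krt8*, −0.05 ± 0.27 for *Krt18*, −0.30 ± 0.27 for *Krt19* and −0.25 ± 0.23 for *Krt7*, each with an adjusted *P* of 0.9997 by the QL test. With 2 libraries a group, a change smaller than the spread between libraries could not be told from none.

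In macrophage libraries all 4 simple keratins were present and were lower in every *Cebpb*ΔM library than in both WT libraries. *Krt8* was at 2896 and 3365 CPM in WT and at 1902, 1684, 1573 and 1615 CPM in *Cebpb*ΔM macrophages. *Krt18* was at 2800 and 2673 CPM in WT and at 1567, 1329, 1523 and 1771 CPM in *Cebpb*ΔM. The mean of *Krt8* was 3130 ± 332 CPM (SD, n = 2) in WT and 1693 ± 146 CPM (SD, n = 4) in *Cebpb*ΔM, so both chains of the luminal filament pair lay lower in each mutant library by more than the spread within either group. *Krt19* was at 2834 and 2905 CPM in WT and at 1425, 1497, 1342 and 2371 CPM in *Cebpb*ΔM, where the last library stood well above the others. *Krt7* was at 342 and 389 CPM in WT and at 115, 149, 202 and 291 CPM in *Cebpb*ΔM. Groups without overlap, lower in *Cebpb*ΔM, were found for 9.08% of all genes tested.

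For *Krt8* the log2 fold change in macrophages was −0.89 ± 0.14 (SE), with an adjusted *P* of 0.452 by the QL test, although it ranked 5 by *P* among all genes tested. *Krt18* was at −0.82 ± 0.15 and ranked 14, at the same adjusted *P*. *Krt19* was at −0.79 ± 0.23 with an adjusted *P* of 0.495, and *Krt7* by −0.95 ± 0.33 with an adjusted *P* of 0.521. The call on *Krt8* and *Krt18* depended on the test, with adjusted *P* values of 0.0040 and 0.016 by the likelihood ratio test and 1.65e-04 and 0.0013 by DESeq2. With the mean log2 level of the epithelial markers as a covariate the log2 fold changes were −0.84 for *Krt8*, −0.84 for *Krt18*, −0.87 for *Krt19* and −1.33 for *Krt7*, with adjusted *P* values of 0.186 to 0.286 by the QL test. Among those 14 epithelial markers, 11 had negative and 3 positive log2 fold changes in *Cebpb*ΔM macrophages, and their median was −0.25. At an unadjusted *P* under 0.05 by the QL test, 3 of these epithelial markers were lower, against 3.67% of all genes in that direction. All 10 macrophage markers had positive log2 fold changes, and their median was 0.56. Of these, 5 had an unadjusted *P* under 0.05 by the QL test, against 8.63% of all genes in either direction. How far the makeup of the macrophage libraries enters the simple keratin values was not tested beyond this covariate.

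Against macrophages, WT MECs held more of each simple keratin. The log2 difference between WT MECs and WT macrophages was 1.92 ± 0.20 (SE) for *Krt8*, 1.74 ± 0.21 for *Krt18*, 1.79 ± 0.36 for *Krt7* and 1.43 ± 0.27 for *Krt19*. The adjusted *P* values by the QL test were 6.27e-05, 1.64e-04, 0.0043 and 0.0031, and all 4 genes stayed called in each of the 15 alternative fits. The balance between them also differed. Per unit of length, *Krt18* stood at 1.03 to 1.07 times *Krt8* in the 4 MEC libraries and at 1.08 to 1.49 times *Krt8* in the 6 macrophage libraries. *Krt19* stood at 0.537 to 0.697 times *Krt8* in MECs and at 0.791 to 1.55 times *Krt8* in macrophages, with no overlap. *Krt8* shares 16.9% of its 100-base windows with its pseudogene *Krt8-ps*, so that part of its reads could not be placed with certainty.

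**Figure D3:**
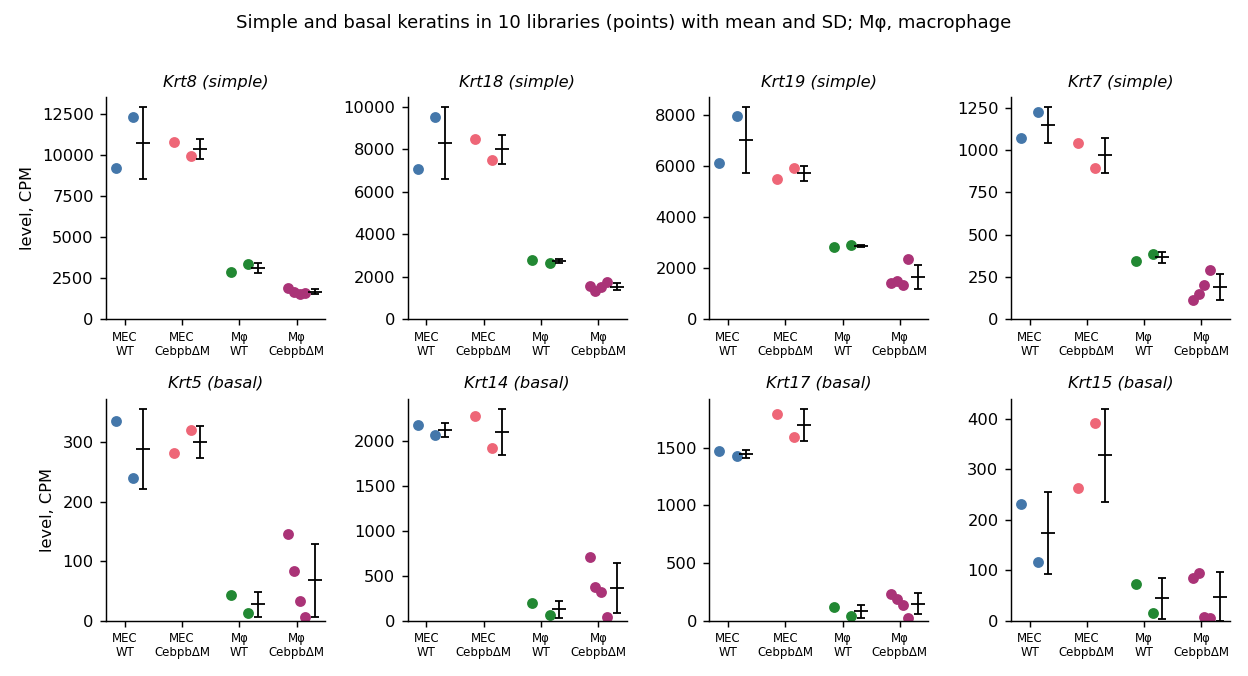
Level in CPM of the 4 simple keratins (top row) and 4 basal keratins (bottom row) in each library, as points by group, with the group mean and SD beside them and axes from 0. The simple keratins of the 4 *Cebpb*ΔM macrophage libraries lay below both WT macrophage libraries, while the basal keratins of the same 4 libraries lay on both sides of WT.

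Basal keratins other than *Krt15* differed little between MEC libraries and spread widely in macrophage libraries. *Krt14* was at 2177 and 2069 CPM in WT MECs and at 2284 and 1926 CPM in *Cebpb*ΔM MECs, a log2 fold change of −0.01 ± 0.24 (SE). *Krt17*, also known from stressed and wounded epithelium, was at 1470 and 1424 CPM in WT and 1794 and 1597 CPM in *Cebpb*ΔM MECs, a log2 fold change of 0.23 ± 0.23. *Krt5* was at 336 and 240 CPM in WT and 282 and 320 CPM in *Cebpb*ΔM MECs, a log2 fold change of 0.06 ± 0.23. *Krt15*, a keratin of basal and stem-like cells in stratified epithelium, was at 232 and 116 CPM in WT and at 263 and 393 CPM in *Cebpb*ΔM MECs, with no overlap. Its log2 fold change was 0.91 ± 0.32 with an adjusted *P* of 0.572 by the QL test, and single libraries moved it. It was 1.49 with an adjusted *P* of 0.010 without WT MEC 1, 0.52 with an adjusted *P* of 0.9997 without WT MEC 3, and 0.59 with an adjusted *P* of 0.530 without *Cebpb*ΔM MEC 3.

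Macrophage libraries differed widely from each other in basal keratins, also within a genotype. *Krt14* was at 191 and 59.2 CPM in WT macrophages and at 713, 377, 317 and 42.7 CPM in *Cebpb*ΔM macrophages. *Krt5* followed it, at 42.5 and 12.4 CPM in WT and 146, 83.9, 33.4 and 6.74 CPM in *Cebpb*ΔM. *Krt17* was at 120 and 38.9 CPM in WT and 234, 188, 136 and 24.3 CPM in *Cebpb*ΔM. In each of these 3 genes *Cebpb*ΔM macrophage 7 was the lowest and *Cebpb*ΔM macrophage 4 the highest of all 6 libraries. *Krt15* was at 72.9 and 14.99 CPM in WT and 84.0, 95.3, 6.16 and 5.75 CPM in *Cebpb*ΔM, with both extremes again among the mutants. From the lowest to the highest library the fold was 16.7 for *Krt14*, 21.6 for *Krt5*, 9.63 for *Krt17* and 16.6 for *Krt15*, where for simple keratins it was 2.11 to 3.39.

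All 4 basal keratins had positive log2 fold changes in *Cebpb*ΔM macrophages, from 0.12 ± 1.15 (SE) for *Krt15* to 1.53 ± 0.92 for *Krt14*, and none passed the QL test (lowest adjusted *P* = 0.692). *Krt15* turned negative without WT macrophage 5, at −0.61, without *Cebpb*ΔM macrophage 4, at −0.30, and without *Cebpb*ΔM macrophage 5, at −0.47. The basal and myoepithelial markers that are not keratins ran alongside. Their summed level over 10 genes was 1351 and 1146 CPM in WT macrophages and 2924, 2042, 2152 and 981 CPM in *Cebpb*ΔM macrophages. *Acta2* was the most abundant, none of the 10 was at 0 in any library, and all 10 had positive log2 fold changes. At an unadjusted *P* under 0.05 there was 1 of them, against 8.63% of all genes in either direction, and 0 were called. The part of basal epithelial RNA in the basal keratin values was not tested.

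WT MECs exceeded WT macrophages by a log2 difference of 4.23 ± 0.98 (SE) for *Krt14*, 4.33 ± 0.86 for *Krt17*, 3.53 ± 1.05 for *Krt5* and 2.13 ± 1.21 for *Krt15*. The adjusted *P* values by the QL test were 0.0095, 0.0041, 0.031 and 0.226. Without WT macrophage 5 the values of *Krt14* and *Krt5* lost their call, at adjusted *P* values of 0.076 and 0.172, and *Krt5* lost it too without either WT MEC library. The ratio of summed basal to simple keratins was 0.124 to 0.179 in MEC counts and 0.0131 to 0.235 in macrophage counts. Within the basal set, *Krt14* per unit of length stood at 7.53 to 10.8 times *Krt5* in MECs and 5.62 to 11.9 times in macrophages, ranges that overlapped.

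Among epidermal, mucosal and stress keratins, the stress keratins *Krt6a* and *Krt16* were far higher in MECs than in macrophages. *Krt6a*, a type II keratin of wounded and activated keratinocytes, was at 568 and 558 CPM in WT and 608 and 530 CPM in *Cebpb*ΔM MECs, against 20.9 and 14.1 CPM in WT macrophages and 2.30, 0.702, 17.0 and 6.99 CPM in *Cebpb*ΔM macrophages. *Krt16*, its type I partner, was at 64.2 and 69.9 CPM in WT and 80.7 and 70.8 CPM in *Cebpb*ΔM MECs and at most 3.36 CPM in any macrophage library. The log2 difference of WT MECs over WT macrophages was 5.15 ± 1.03 (SE) for *Krt6a* and 5.98 ± 1.12 for *Krt16*, with adjusted *P* values of 0.0041 and 0.0028 by the QL test. Between MEC genotypes the log2 fold change was 0.02 ± 0.22 for *Krt6a* and 0.18 ± 0.20 for *Krt16*, neither larger than its error. *Krt6b*, a close copy of *Krt6a*, was at 13.0 to 20.6 CPM in MECs and at 0.0501 to 2.30 CPM in macrophages.

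Set against *Krt14*, *Krt6a* was lower in every macrophage library than in MECs. Per unit of length, *Krt6a* stood at 0.190, 0.196, 0.194 and 0.200 times *Krt14* in the 4 MEC libraries. In WT macrophages it stood at 0.0794 and 0.173 times *Krt14*, and in *Cebpb*ΔM macrophages at 0.00235, 0.00135, 0.0391 and 0.119 times. The *Cebpb*ΔM macrophage libraries with the most *Krt14*, numbers 4 and 5, were the ones with the least *Krt6a*. *Krt16* stood at 0.0331 to 0.0413 times *Krt14* in MECs and at 0 to 0.0138 times in macrophages, again with no overlap. *Krt6a* and *Krt6b* share 29.1% and 30.6% of their 100-base windows, mainly with each other, and *Krt16* shares 24.3% with *Gm11597* and *Krt14*, so their counts are uncertain to that extent.

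*Krt4*, a type II keratin of mucosal epithelium, had the smallest *P* of all keratins between the MEC genotypes. It was at 43.6 and 41.5 CPM in WT and at 20.1 and 24.1 CPM in *Cebpb*ΔM MECs, so both mutant libraries were well below both WT libraries. The log2 fold change was −0.94 ± 0.23 (SE) with an adjusted *P* of 0.196 by the QL test, 0.033 by the likelihood ratio test and 0.030 by DESeq2. In macrophages *Krt4* was at 1.83 and 2.14 CPM in WT and at 0, 0.551, 0 and 2.04 CPM in *Cebpb*ΔM, a log2 fold change of −1.62 ± 1.5. *Krt80*, a keratin found in many epithelia, was at 81.7 and 62.4 CPM in WT and 65.3 and 61.3 CPM in *Cebpb*ΔM MECs and at 22.8 to 47.9 CPM in macrophages, where both WT values, 22.8 and 39.3 CPM, lay inside or below the mutant range of 27.7 to 47.9 CPM. *Krt78* was at 4.33 and 4.19 CPM in WT and 6.45 and 6.22 CPM in *Cebpb*ΔM MECs and did not pass the test, with a log2 fold change of 0.57 ± 0.31. *Krt10* and *Krt79*, keratins of the suprabasal epidermis and of hair follicle openings and sebaceous glands, were at 2.64 to 5.84 CPM in MECs and at 0 to 3.35 CPM in macrophages, and neither passed a genotype test. *Krt13* stayed at or under 1.68 CPM, *Krt1*, *Krt9*, *Krt12*, *Krt76* and *Krt77* stayed at or under 0.721 CPM in every library, and *Krt2* and *Krt24* had no count.

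Of the 6 other keratins, *Krt23* and *Krt42* were the abundant ones. *Krt42*, a type I keratin gene of mice, was at 18.1 and 22.5 CPM in WT and 43.9 and 33.2 CPM in *Cebpb*ΔM MECs, a log2 fold change of 0.93 ± 0.25 (SE) with an adjusted *P* of 0.271 by the QL test. It was at 4.08 and 0.747 CPM in WT macrophages and at 0.501 to 2.66 CPM in *Cebpb*ΔM macrophages. *Krt23*, a type I keratin of glandular epithelia, was at 35.7 and 40.2 CPM in WT and 24.0 and 25.3 CPM in *Cebpb*ΔM MECs, a log2 fold change of −0.62 ± 0.22 with an adjusted *P* of 0.595. Both genes had groups without overlap in MECs, as did 28.7% of all genes tested. In macrophages *Krt23* was at 15.3 and 27.4 CPM in WT and at 74.2, 41.1, 7.54 and 8.72 CPM in *Cebpb*ΔM, where mutant libraries 4 and 5 were above and 6 and 7 below WT. Mutant libraries 4 and 5 also held the most *Krt15* of the mutants, and 6 and 7 the least. *Krt20*, *Krt88*, *Krt90* and *Krt222* stayed at or under 1.84 CPM in every library.

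Summed by class, hair follicle keratins were low in every library next to the simple and basal keratins. The inner root sheath is the layer that moulds the growing hair, and its type II keratins *Krt71* to *Krt74* pair with the type I keratins *Krt25* to *Krt28*. The 150 bases before the transcription start are shown for 2 genes of each type that were counted in MECs and in macrophages, from the RefSeq annotation of GRCm38.p6, 5′ to 3′ on the gene's strand, with the TATA box letters TATAAA in capitals.
Krt71 (chr15:101743098-101743247, minus strand): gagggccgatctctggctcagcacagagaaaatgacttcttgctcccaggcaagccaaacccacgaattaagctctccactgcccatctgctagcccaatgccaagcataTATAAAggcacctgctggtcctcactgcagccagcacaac
Krt73 (chr15:101802361-101802510, minus strand): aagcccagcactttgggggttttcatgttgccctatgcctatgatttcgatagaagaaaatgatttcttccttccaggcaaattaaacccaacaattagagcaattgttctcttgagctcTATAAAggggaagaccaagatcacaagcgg
Krt25 (chr11:99322952-99323101, minus strand): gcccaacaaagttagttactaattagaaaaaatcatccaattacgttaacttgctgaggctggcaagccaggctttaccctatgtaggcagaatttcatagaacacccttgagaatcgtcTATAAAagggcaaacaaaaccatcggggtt
Krt28 (chr11:99374904-99375053, minus strand): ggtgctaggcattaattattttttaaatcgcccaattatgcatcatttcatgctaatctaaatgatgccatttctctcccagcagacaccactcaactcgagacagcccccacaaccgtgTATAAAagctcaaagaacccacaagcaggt
RefSeq gave a promoter for 36 of the 54 keratins. The letters TATAAA, searched from 250 bases before to 50 after the start, stood on the gene's strand in 17 of these 36, next to 8.32% of 32851 promoters of the same length. On either strand it was 19 of 36, next to 13.6%. Of the inner root sheath and companion layer genes, 8 had a promoter and 6 held TATAAA, at 30 bases before the start in *Krt25*, *Krt26*, *Krt28* and *Krt73*, at 40 in *Krt71* and at 15 in *Krt27*. Of the 5 simple and basal keratins with a promoter, *Krt8* held it, at 1 base before the start, and *Krt5*, *Krt7*, *Krt14* and *Krt18* did not. For *Krt7* and *Krt14* the RefSeq start lay inside the gene as counted, so a start at its 5′ end was not searched. The letters TTGCNNAA, which C/EBP factors can bind, stood on either strand in 5 of the 36 keratin promoters and 10.8% of all, and TGANTCA, an AP-1 site, in 1 of 36 and 7.81% of all. A match is a run of letters, and binding was not measured.

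*Krt71*, the most abundant inner root sheath keratin, had 1287 and 203 counts in WT MECs and 24 and 306 in *Cebpb*ΔM MECs. *Krt27* had 219 and 40 counts in WT and 1 and 27 in *Cebpb*ΔM MECs, *Krt28* had 81 and 40 against 2 and 21, and *Krt25* had 150 and 18 against 1 and 44. *Krt35*, a keratin of the hair matrix and cortex, had 129 and 164 counts in WT and 1 and 43 in *Cebpb*ΔM MECs. *Cebpb*ΔM MEC 1 was the lowest MEC library for each of these 5 genes, and *Cebpb*ΔM MEC 3 lay within the WT range for *Krt71* and *Krt25*. All 5 inner root sheath keratins tested in MECs had negative log2 fold changes, from −3.20 ± 0.95 (SE) for *Krt27* to −0.86 ± 0.48 for *Krt73*, with *Krt28* at −2.39 ± 0.75 and *Krt71* at −2.18 ± 0.91. *Krt28* was over 1 CPM only in the WT MEC libraries, so its negative sign was fixed by the filter. *Krt35* was at −2.74 ± 0.81. None passed the QL test, at adjusted *P* values of 0.364 for *Krt27* and *Krt35*, 0.420 for *Krt28* and 0.816 for *Krt71*.

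These MEC values rested on single libraries. Leaving out *Cebpb*ΔM MEC 3 leaves *Cebpb*ΔM MEC 1 alone and assumes that it varies like WT. The log2 fold changes were then −6.84 for *Krt27*, −4.83 for *Krt28*, −7.03 for *Krt35* and −4.94 for *Krt71*. These 4 hair keratins were under 1 CPM in *Cebpb*ΔM MEC 1, so they passed the filter only through the WT libraries. Their negative sign was therefore fixed. *Krt4* was at −1.09 and *Krt42* at 1.11 in the same fit. Without *Cebpb*ΔM MEC 1 the value of *Krt71* was −1.29 and that of *Krt27* −2.26, and without WT MEC 1 they were −0.33 and −1.53. *Krt35* was at −2.92 without WT MEC 1.

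*Krt26*, *Krt72*, *Krt74* and *Krt75* were under the filter, with at most 57 counts in any MEC library and 0 in every macrophage library.

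In macrophages the same keratins were found mainly in 1 library. *Cebpb*ΔM macrophage 5 had 451 counts of *Krt71*, 136 of *Krt73*, 144 of *Krt35*, 92 of *Krt28* and 78 of *Krt25*. *Cebpb*ΔM macrophage 4 had 40, 9, 0, 39 and 5 counts of them. The other 4 macrophage libraries held at most 14 counts of any inner root sheath keratin, and *Cebpb*ΔM macrophage 6 held 0 of all 9. The class sum was 0.471 and 0.697 CPM in WT macrophages and 4.87, 38.4, 0 and 0.309 CPM in *Cebpb*ΔM macrophages. Only *Krt28* and *Krt71* passed the filter, at log2 fold changes of 2.80 ± 2.24 (SE) and 4.13 ± 2.36 with adjusted *P* values of 0.788 and 0.668 by the QL test, the errors more than 0.5 times the values. Both genes passed it only through *Cebpb*ΔM macrophages 4 and 5, so the positive sign was fixed by the filter. *Krt27* had 8 counts in *Cebpb*ΔM macrophage 5 and 0 in the other 5 macrophage libraries, so that its call in WT MECs is against 0 counts and has no set fold.

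**Figure D4:**
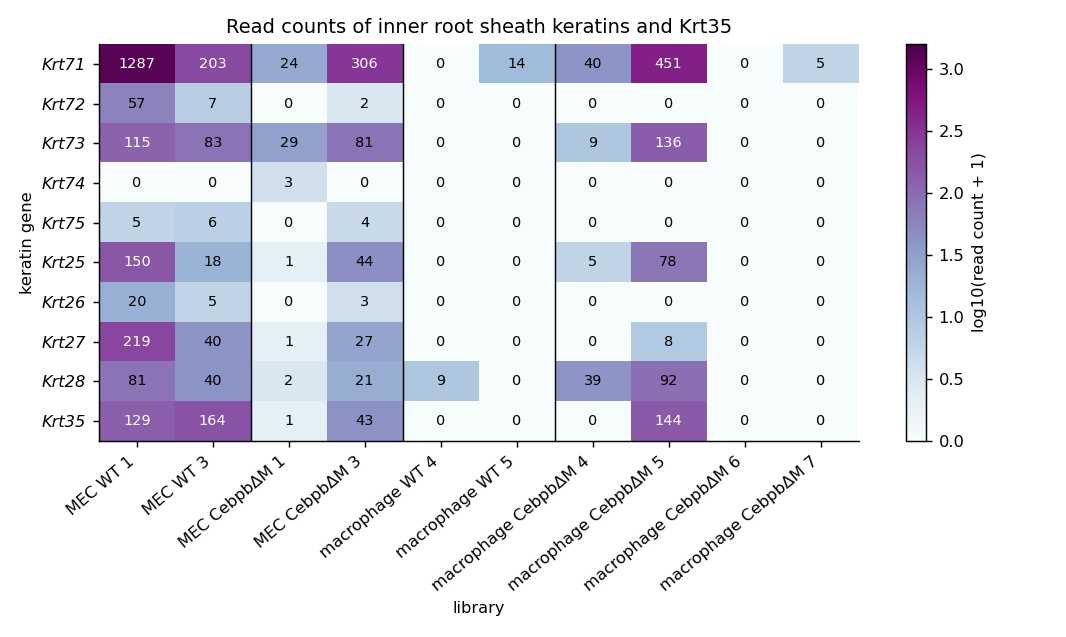
Read counts of the 9 inner root sheath and companion layer keratins and *Krt35* (rows) in each of the 10 libraries (columns), printed in each cell and shaded by log10 of the count plus 1. WT MEC 1 and *Cebpb*ΔM macrophage 5 held the most *Krt71*, with 1287 and 451 counts, while *Cebpb*ΔM MEC 1 and the macrophage libraries other than *Cebpb*ΔM 4 and 5 held few or none.

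Other genes of hair and cornified layers are given beside these. Keratin-associated proteins, which embed the hair shaft keratins, had 58 genes in the tables, of which 1 passed the filter in MECs and 0 in macrophages, and together they had 156 and 191 counts in WT MECs, 120 and 110 in *Cebpb*ΔM MECs and 12 to 42 in macrophages. Their summed counts did not overlap between the 2 MEC genotypes, with *Cebpb*ΔM lower, and the 1 gene tested in MECs had a log2 fold change of −0.099. Among inner root sheath keratins, *Krt27*, *Krt28* and *Krt73* were also lower without overlap, while *Krt25* and *Krt71* overlapped. Lower groups without overlap were found for 13.3% of all genes tested in MECs. In *Cebpb*ΔM macrophage 5 they had 17 counts. *Tchh*, the trichohyalin of the inner root sheath and medulla, had 505 and 519 counts in WT MECs, 413 and 426 in *Cebpb*ΔM MECs, 182 and 169 in WT macrophages and 242, 323, 164 and 110 in *Cebpb*ΔM macrophages. Of 20 hair and cornified layer genes in the tables, 7 passed the filter in each cell type and 0 were called between genotypes in either. The most abundant of them, *Gata3*, *Lgr6* and *Msx2*, are also genes of the mammary epithelium. Melanocyte markers, 5 genes, summed to 15.9 and 11.5 CPM in WT MECs, 8.99 and 9.22 CPM in *Cebpb*ΔM MECs and 3.77 to 8.42 CPM in macrophages. All 4 tested in MECs had negative log2 fold changes, with 0 called and a median of −0.63. At an unadjusted *P* under 0.05 there was 1 of them, against 1.43% of all genes in that direction. The part of hair follicle RNA in the keratin values was not tested.

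Hair shaft keratins summed to 20.01 to 27.5 CPM in MECs and 7.43 to 13.7 CPM in macrophages. *Krt87* made up most of this in MECs, at 16.3 and 12.2 CPM in WT and 14.9 and 16.7 CPM in *Cebpb*ΔM MECs and at 1.10 to 7.77 CPM in macrophages, and it shares 11% of its 100-base windows, with *Krt81*, *Krt83* and *Krt86* among others. Its log2 fold change was 0.14 ± 0.27 (SE) in MECs and −0.88 ± 0.62 in macrophages. *Krt32* was at 0.737 to 1.65 CPM in MECs and had 0 counts in all 6 macrophage libraries, so that its call in WT MECs also has no set fold. *Krt83* was at 0.691 to 1.78 CPM in MECs, at 0 and 0.0996 CPM in WT macrophages and at 1.47, 0.953, 0.0555 and 0.247 CPM in *Cebpb*ΔM macrophages, and its call between WT MECs and WT macrophages was lost in 7 of the 10 fits that left out a library. *Krt36* was at 0.721 to 1.88 CPM in MECs, at 1.73 and 0.647 CPM in WT macrophages and at 3.30, 2.71, 0.0555 and 8.41 CPM in *Cebpb*ΔM macrophages. *Krt31* and *Krt33a*, which share 14.0% and 12.4% of their windows with each other and their neighbours, reached 1.86 and 1.82 CPM in WT MEC 3 and at most 0.760 CPM elsewhere. *Krt81* and *Krt86* share 29.0% and 24.6% of theirs and stayed at or under 1.26 CPM, and *Krt33b*, *Krt39*, *Krt40*, *Krt82* and *Krt84* stayed at or under 0.666 CPM.

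The difference between the 2 genotype effects, MECs minus macrophages, was tested over all 10 libraries. The QL test called 0 of 29 keratins, where it called 0% of 18323 genes, and the likelihood ratio test and DESeq2 also called 0 keratins. At an unadjusted *P* under 0.05 there were 6 keratins, against 5.19% of all genes, with 3 more positive in MECs, against 1.90%, and 3 more negative, against 3.29%. Among the positive ones were 2 simple keratins, *Krt8* with a difference of 0.79 ± 0.26 (SE) on the log2 scale and *Krt18* with 0.73 ± 0.27, at adjusted *P* values of 0.923 and 0.938. All 4 simple keratins had a positive difference, from 0.45 for *Krt19* to 0.79 for *Krt8*, while 3 of 4 basal keratins had a negative one, down to −1.59 ± 1.16 for *Krt14*. The other positive one was *Krt78*, and the negative ones were *Krt35*, *Krt73* and *Krt83*. Since WT macrophages had 0 counts of *Krt35* and *Krt73*, their fitted differences have no set size. Their negative sign was also fixed once any mutant macrophage library held counts. For *Krt35* these were 144 counts in *Cebpb*ΔM macrophage 5 alone. *Krt83* had 0 and 2 counts in WT macrophages, so its difference rested on values near 0.

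Proteins that anchor keratin filaments to cell junctions were read from a list of filament partners. Of 16 partners in desmosomes and hemidesmosomes, 15 were tested in macrophages, with 12 negative and 3 positive log2 fold changes. At an unadjusted *P* under 0.05 there were 3, all lower in *Cebpb*ΔM, against 3.67% of all genes in that direction, and 0 were called. Their median log2 fold change was −0.42 in macrophages and −0.09 in MECs. In MECs all 16 were tested, with 12 negative and 4 positive values and 0 called. *Plec*, which links intermediate filaments to cell junctions and the cytoskeleton, was at 425 and 582 CPM in WT and 280, 341, 403 and 336 CPM in *Cebpb*ΔM macrophages, a log2 fold change of −0.57 with an adjusted *P* of 0.521 by the QL test. Among 14 transcription factors known to act on keratin genes or epithelial identity, 0 were called in either cell type, with 3 positive and 11 negative log2 fold changes in MECs and 7 of each sign in macrophages.

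Luminal and milk markers outside the keratins are given for scale. The 10 luminal markers summed to 4335 to 5212 CPM in MECs, 2178 and 2293 CPM in WT macrophages and 1454, 1150, 1425 and 2213 CPM in *Cebpb*ΔM macrophages, with *Prlr* the most abundant. *Cebpb*ΔM macrophage 7, the mutant library with the most *Krt19* and *Krt7*, also had the highest luminal sum of the mutants, near that of WT, and the lowest basal sum. *Cebpb*ΔM macrophage 4, with the most basal keratins, also held 245 CPM of *Csn2*, a milk protein gene, where WT macrophages held 0 and 0.0498 CPM. The 5 milk markers summed to 125 and 82.1 CPM in WT macrophages and 787, 128, 101 and 62.1 CPM in *Cebpb*ΔM macrophages. All 4 tested in macrophages and all 3 tested in MECs had positive log2 fold changes. At an unadjusted *P* under 0.05 by the QL test there were 2 in each cell type. In either direction this held for 8.63% of all genes in macrophages and 5.42% in MECs. None of the 10 luminal or 5 milk markers was called between genotypes in either cell type.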

How the data were processed

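RNA from MECs left after lineage depletion and from F4/80-selected macrophages was sequenced as low-input libraries. Per the labels and the file headers, the authors trimmed reads with Trimmomatic, aligned them to GRCm38 with HISAT2 and counted them per gene with featureCounts 1.6.2 on Ensembl 100 (both mates mapped, mapping quality of at least 10, reverse-stranded). The deposited values are raw counts per gene.

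Symbols came from GENCODE M21, which named 55141 of 55487 genes. The 8951 genes under 300 nt were left out, and genes over 1 CPM in at least 2 libraries were tested, as in the study's methods. CPM values were scaled by TMM factors within each experiment. Fold changes and tests came from the edgeR 4.0.16 quasi-likelihood test in R 4.3.3, at its default prior count. The *P* values were adjusted by Benjamini-Hochberg across every tested gene and called at 0.05 or less. SE was the absolute log2 fold change over the square root of the F statistic of that test. A prior count of 2 was used only for the log2 levels of the epithelial covariate and of the correlations between same-numbered libraries. The study's likelihood ratio test and DESeq2 1.42.0 were alternatives, and the script was tested on simulated data. Other alternatives were RLE scaling, 2 other count filters, 1 fit of all libraries, a replicate block, an epithelial covariate and leaving out each library.

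The keratins and all lists were chosen with earlier results of these data known. Named in full were the 8 simple and basal keratins, other keratins called in any comparison, the 5 others most abundant per length in each cell type and the 5 others with the smallest *P* in each genotype comparison. The remaining members, given by their counts or ranges, and *Krt10*, *Krt36* and *Krt79* were added after their values were seen. Partner, luminal and milk genes were named as among the most abundant of their lists. *Tchh* and *Csn2* were chosen after their values were seen. *P* values measure only the spread between these libraries, and intervals and floors of 3 counts cover counting error only.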

Additional observations from a re-analysis of the deposited data

Results flagged for a closer look

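Among the 4 *Cebpb*ΔM macrophage libraries, the highest library stood far from the other 3 in 5 of 29 sets of values examined. Chance marks about 1 set in 20, but that rate does not hold for *Krt27* and *Krt35*, which were at 0 in the other 3 libraries, so that any count in 1 library would mark them. *Krt19* was at 2371 CPM in *Cebpb*ΔM macrophage 7. *Krt71*, *Krt35* and *Krt27* were at 22.6, 7.22 and 0.401 CPM in *Cebpb*ΔM macrophage 5, the last from 8 counts, and the summed inner root sheath and companion layer class was at 38.4 CPM in the same library. The last 4 values share 1 library and are not independent of each other.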

How the results depend on the processing

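In MECs the number of keratins called was 0 in the main fit, 1 with the likelihood ratio test, 1 with DESeq2 and 4 with the replicate block (*Krt4*, *Krt27*, *Krt28* and *Krt35*), and 0 to 6 without 1 library each. Over all genes it was 8, against 179 with the likelihood ratio test, 161 with DESeq2, 38 with no low-count filter, 0 with all libraries in one fit, 205 with the replicate block and 2 to 337 without 1 library each. In macrophages 0 keratins were called, against 2 with the likelihood ratio test, 2 with DESeq2, 1 with the replicate block (*Krt14*, at 2.28 with an adjusted *P* of 0.030) and 0 without any 1 library, and 0 genes, against 138, 201 and 12. For the difference between the genotype effects 0 keratins were called in all 17 settings, and of all genes 0, against 53 with the likelihood ratio test, 27 with DESeq2, 1 with the replicate block and 0 to 1 without 1 library each. Between WT MECs and WT macrophages the 16 keratins called became 10 to 19, and the 4664 genes 2456 to 4846, without 1 library each. The replicate block pairs numbers for which no source names a shared animal or day. As deviations from their group means, same-numbered libraries correlated at 0.106 in MECs and at 0.129 and −0.0865 in macrophages over genes. Where a group has 2 libraries their deviations mirror each other, so MECs give in effect 1 value. Whether same-numbered libraries share more than a number was therefore not settled by these values. No paired analysis was possible for WT MECs against WT macrophages because these groups share no replicate number. Length scaling moved the keratin share of counts to 4.82% in WT MECs, 4.60% in *Cebpb*ΔM MECs, 1.54% in WT macrophages and 0.891% in *Cebpb*ΔM macrophages.

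Some signs turned. In MECs *Krt14* was at 0.0036 with edgeR's own count filter and *Krt6a* at −0.0024 with all libraries in one fit, and *Krt15* had a difference of −0.49 between the genotype effects with the replicate block. Without 1 library each, log2 fold changes in MECs ran from −0.14 to 0.10 for *Krt14*, −0.25 to 0.19 for *Krt18*, −0.14 to 0.32 for *Krt5*, −0.086 to 0.11 for *Krt6a*, −0.41 to 0.25 for *Krt6b*, −0.25 to 0.19 for *Krt8*, −0.35 to 0.022 for *Krt80* and −0.035 to 0.37 for *Krt87*. In macrophages they ran from −0.61 to 1.67 for *Krt15*, −0.33 to 8.13 for *Krt16*, −0.16 to 1.10 for *Krt23*, −1.55 to 0.89 for *Krt42* and −0.19 to 0.60 for *Krt80*. The difference between genotype effects ran from −0.79 to 1.501 for *Krt15*, −8.17 to 0.48 for *Krt16* and −0.30 to 1.82 for *Krt6b*. The cause was not tested. Simple keratins in macrophages stayed negative in all 17 settings, from −0.99 to −0.77 for *Krt8*, −0.92 to −0.75 for *Krt18*, −1.02 to −0.70 for *Krt19* and −1.48 to −0.78 for *Krt7*.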
